A study of Mus musculus with 24 samples.

Results

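This is the comparison of PU.1 SpiB DKO with SpiB KO B cells after 48 h of culture with CD40L + IL-4, which shows how expression differed with loss of PU.1 in cells that already lacked SpiB. It holds 4 of the 24 libraries of the series, 2 of each genotype, and every gene with at least 0.5 CPM (the reads on a gene relative to all counted reads of its library) in at least 2 of these 4 libraries. This filter kept 12298 of the 27179 genes listed. The B cells came from lymph nodes of adult C57BL/6 mice, were stimulated through CD40 and the IL-4 receptor, and were sorted as CD3- B220+ CD138- cells before RNA sequencing. The other libraries of the series hold control and PU.1 cKO cells of the same culture and all 4 genotypes as naive cells and after LPS + IL-4.

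SpiB KO cells were Spi1fl/fl Cd23+/+ Spib-/-, so they carried floxed Spi1 alleles and no Cre. PU.1 SpiB DKO cells were Spi1fl/fl Cd23T/+ Spib-/-, where Cd23T is a transgene that expresses Cre from the Cd23 (Fcer2a) gene, which is switched on as B cells mature. Both genotypes therefore lacked SpiB, and loss of PU.1 cannot be told apart from the presence of the Cre transgene within this pair. In the most similar pair of the series both genotypes carried Cre: control cells were Cd23T/+ and PU.1 cKO cells were Spi1fl/fl Cd23T/+. The study calls the libraries of a genotype biological replicates, the labels number them but do not tie them to separate mice, and p-values measure the spread between these libraries.

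PU.1 (encoded by Spi1) and SpiB (encoded by Spib) are ETS transcription factors that bind the same purine-rich DNA with a GGAA core. In B cells they are known to occupy promoters and enhancers of genes for signalling from the B cell receptor (BCR), CD40 and Toll-like receptors. CD40 ligand and IL-4 stand in for help from T cells, and drive growth, class switching to IgG1 and IgE and, in some of the cells, differentiation towards antibody-secreting plasma cells.

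Counts on genes totalled 10022091 and 11434235 in the SpiB KO libraries and 9846606 and 10118485 in PU.1 SpiB DKO. Ribosomal RNA set PU.1 SpiB DKO replicate 1 apart, with 6.64% of its counts on Rn45s against at most 1.86% in any other library of the culture. B cell markers were high in all 4 libraries, with a summed level of 10018 and 7377 CPM over 10 markers in SpiB KO and of 5996 and 4644 CPM in PU.1 SpiB DKO. Those of T, myeloid, dendritic and erythroid cells are given further on, beside the genes they bear on.

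PU.1 SpiB DKO differed from SpiB KO in 1952 genes, 15.9% of those tested, at an adjusted p under 0.15 and a fold change over 1.5 (edgeR's quasi-likelihood test with Benjamini-Hochberg adjustment over all genes tested). Of these, 1068 were higher in PU.1 SpiB DKO (8.68% of the genes tested) and 884 were lower (7.19%). At the same adjusted p and any fold change 2590 genes passed (21.1%). The median log2 fold change of all genes tested was 0.0095, and 990 of the genes called changed by more than 1 on the log2 scale, 562 of them higher and 428 lower. Both libraries of 1 genotype lay above both of the other for 6777 genes (55.1% of those tested) and for 1938 of the 1952 genes called. In bulk libraries fewer or more cells of a type cannot be told apart from less or more RNA per cell. The count fell to 1075 without SpiB KO replicate 1 and to 1196 without PU.1 SpiB DKO replicate 2.

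**Figure D1:**
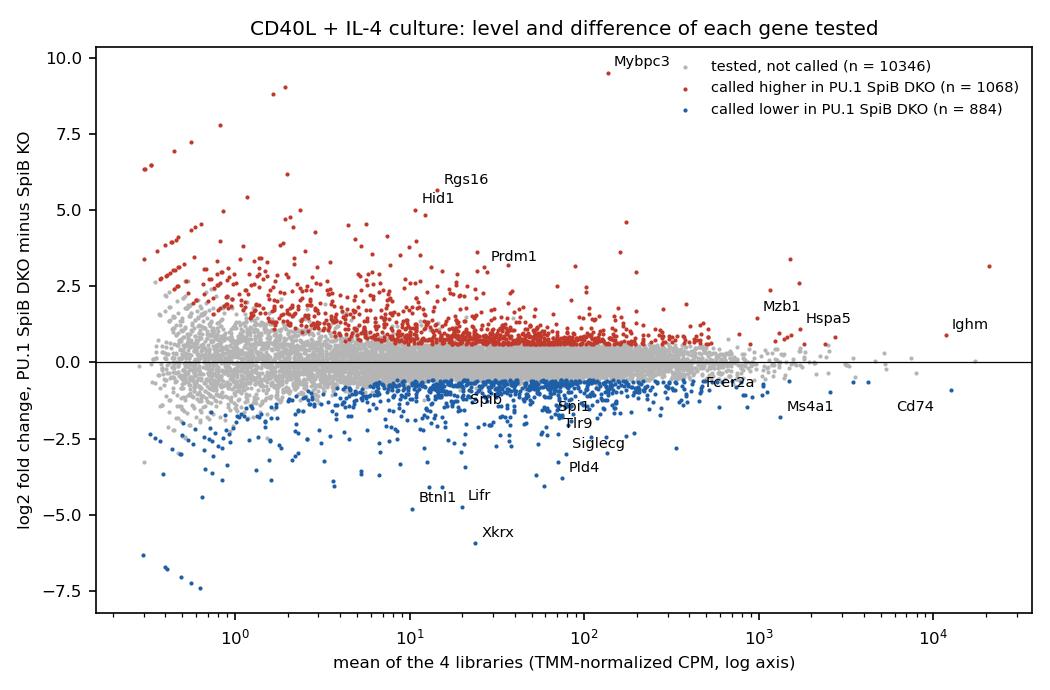
Log2 fold change of PU.1 SpiB DKO over SpiB KO (y axis) against the mean of the 4 libraries (TMM-normalized CPM, log axis) for the 12298 genes tested after CD40L + IL-4, with genes called higher in red, called lower in blue and not called in grey. The 1068 higher and 884 lower genes lie on both sides of a median of 0.0095, and Mybpc3 lies at 9.50.

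The targeted gene was examined first. Spi1 was at 109 and 92.0 CPM in SpiB KO and at 32.6 and 25.6 CPM in PU.1 SpiB DKO (log2 fold change -1.79 ± 0.21 (SE), adjusted p = 0.000513). Both PU.1 SpiB DKO libraries lay below both SpiB KO libraries, and the counts that remained cover the whole gene and not the floxed exon alone. Spib, which carries a germline mutation in both genotypes, was at 36.6 and 24.4 CPM in SpiB KO against 397 and 528 CPM in control cells, and fell further to 11.4 and 9.05 CPM in PU.1 SpiB DKO (log2 fold change -1.58 ± 0.24, adjusted p = 0.00239). Fcer2a, the low-affinity IgE receptor CD23 whose regulatory sequence drives the Cre, was at 631 and 594 CPM in SpiB KO and at 259 and 349 CPM in PU.1 SpiB DKO (log2 fold change -1.01 ± 0.17, adjusted p = 0.00421).

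The largest rise was next to the floxed locus. Mybpc3, a cardiac muscle protein with no known place in B cells, starts 2.36 kb past the end of Spi1 on chromosome 2 (GRCm38, chr2:91118114-91136516, with Spi1 at chr2:91082374-91115759). It was at 0.293 and 0.433 CPM in SpiB KO and at 302 and 241 CPM in PU.1 SpiB DKO. These are 3 and 5 reads against 2786 and 2533, a ratio of 715 with an exact 95% counting interval of 362 to 1656. The 2 control libraries held 0.262 CPM and 0 reads, and PU.1 cKO held 344 and 292 CPM, so Mybpc3 was high in both genotypes with deleted Spi1. Of 20 genes tested within 500 kb of Spi1, 5 were called, Spi1 and Mybpc3 among them, beside 15.9% of all genes tested. Ptpmt1 was higher (log2 fold change 0.72), and Ddb2 and 1110051M20Rik were lower (-0.75 for each). Without SpiB KO replicate 1 or PU.1 SpiB DKO replicate 2, Ptpmt1 (0.58 and 0.65) and Ddb2 (-0.55 and -0.58) were not called, and 1110051M20Rik was not called without any 1 of the 4 libraries (-0.61 to -0.94). Within 500 kb of Spib, 5 of 32 genes tested were called, Spib itself among them, a share near that of all genes. All 5 were lower, among them Mybpc2 (31.0 and 15.7 CPM against 7.15 and 3.81 CPM) and Napsa (1212 and 1039 CPM against 591 and 487 CPM), which encodes an aspartic protease. Shank1 was not called without SpiB KO replicate 1 (-1.09) or PU.1 SpiB DKO replicate 2 (-1.43), nor was Il4i1 without SpiB KO replicate 1 (-0.57). Within 500 kb of Fcer2a 2 of 13 were called, Fcer2a itself and Arhgef18 (log2 fold change -0.94), which was not called without SpiB KO replicate 1 or PU.1 SpiB DKO replicate 2 (-0.58 for each). Since the library kit does not mark strand, reads of overlapping genes on opposite strands cannot be told apart.

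The 12 largest falls among genes with at least 10 CPM in the higher group were Xkrx, Btnl1, Lifr, Grm6, March1, Pld4, Fgd2, Crhbp, Cfp, Nfam1, Ccr6 and Ryr1. Xkrx, a member of the XK family of membrane proteins, was at 46.8 and 46.6 CPM in SpiB KO and at 0.759 and 0.762 CPM in PU.1 SpiB DKO (log2 fold change -5.93 ± 0.32, adjusted p = 5.51e-06). March1, the ubiquitin ligase that removes MHC class II and CD86 from the surface, was at 120 and 103 CPM and at 6.83 and 6.67 CPM (log2 fold change -4.05 ± 0.19, adjusted p = 2.59e-06). Pld4, an endolysosomal nuclease, was at 175 and 105 CPM in SpiB KO and at 10.5 and 9.43 CPM in PU.1 SpiB DKO. In each of these genes the gap between the genotypes was wider than the spread within either. Fgd2, an exchange factor for CDC42, was at 114 and 82.8 CPM against 7.91 and 7.14 CPM. Ccr6, the receptor for CCL20 that guides B cells in lymphoid tissue, was at 154 and 104 CPM against 12.7 and 14.1 CPM. Nfam1, an adaptor with an ITAM that signals in B cells, was at 18.7 and 13.3 CPM against 1.19 and 1.90 CPM. Of the rest, Lifr (the leukaemia inhibitory factor receptor) was at 51.2 and 25.5 CPM against 1.95 and 0.952 CPM, and Cfp (properdin, which stabilizes the alternative complement convertase) was at 35.6 and 40.1 CPM against 3.58 and 3.43 CPM.

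The 12 largest rises by the same rule began with Mybpc3, and 2 of them, Rn7sk and a gene listed without a symbol, rested on PU.1 SpiB DKO replicate 1. Rgs16, which shortens signalling by G protein-coupled receptors, was at 0.586 and 0.519 CPM in SpiB KO and at 32.8 and 23.5 CPM in PU.1 SpiB DKO (log2 fold change 5.66 ± 0.33, adjusted p = 6.97e-06). Atp1b1, the beta subunit of the sodium pump, was at 15.6 and 12.1 CPM against 434 and 235 CPM (log2 fold change 4.59, adjusted p = 1.93e-05). Nov (CCN3, a secreted matrix protein) was at 0.391 and 1.21 CPM against 23.95 and 23.52 CPM. Ptgir, the prostacyclin receptor, was at 2.64 and 4.59 CPM against 43.0 and 46.9 CPM, and Ccr4, a chemokine receptor known from helper T cells, was at 0.684 and 1.21 CPM against 9.10 and 13.4 CPM. Apart from Atp1b1, these genes were at most at 4.59 CPM in SpiB KO, and Hid1, Efna5, Sulf2 and Perp rose from levels as low. By contrast Rn7sk, a small nuclear RNA, was at 1.47 and 1.21 CPM in SpiB KO, at 34.9 CPM in PU.1 SpiB DKO replicate 1 and at 2.19 CPM in replicate 2, and without replicate 1 its log2 fold change was 0.70 (edgeR adjusted p = 0.719). Rn45s was likewise at 70849 CPM in PU.1 SpiB DKO replicate 1 and between 4119 and 4472 CPM in the other 3 libraries. Lars2, a mitochondrial transfer RNA ligase, was at 5270 CPM in that library and between 452 and 557 CPM in the other 3.

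Among genes for BCR chains and co-receptors 8 of 15 tested were lower and 1 was higher, with a median log2 fold change of -0.65. Beside this and each list below, 8.68% of all genes tested were higher and 7.19% lower. Siglecg, an inhibitory lectin of B cells, was at 167 and 111 CPM in SpiB KO and at 15.5 and 19.1 CPM in PU.1 SpiB DKO (log2 fold change -3.00, adjusted p = 3.65e-05). Fcgr2b, the inhibitory receptor for IgG, was at 62.4 and 54.3 CPM against 12.1 and 21.2 CPM (log2 fold change -1.80), and Cd22, an inhibitory co-receptor, was at 1116 and 754 CPM against 649 and 423 CPM (-0.80). The signalling chains of the receptor did not pass the test: Cd79a was at 1494 and 1033 CPM against 1291 and 1093 CPM (log2 fold change -0.08, adjusted p = 0.839) and Cd79b at 1940 and 1339 CPM against 1297 and 1007 CPM (-0.51, adjusted p = 0.185). The heavy chain rose, with Ighm at 8454 and 7984 CPM against 16333 and 14310 CPM (0.90 ± 0.18, adjusted p = 0.00904), whereas Ighd was at 643 and 360 CPM against 314 and 111 CPM (-1.24, adjusted p = 0.0916). Without SpiB KO replicate 1 the genes called lower on this list numbered 3, and without PU.1 SpiB DKO replicate 2 they numbered 4. Cd22 (-0.49 and -0.55) and Ighd (-0.76 and -0.70) were then not called, and Ighm was not called under limma with voom (0.56).

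Downstream of the receptor, 23 of 48 kinases, adaptors and enzymes were lower and 0 were higher, and 44 of the 48 had a negative log2 fold change (median -0.58). Btk, the kinase that activates phospholipase C gamma 2, was at 186 and 148 CPM in SpiB KO and at 73.3 and 65.2 CPM in PU.1 SpiB DKO (log2 fold change -1.27 ± 0.17, adjusted p = 0.000962). Syk, the kinase that docks on the receptor chains, was at 173 and 119 CPM against 81.1 and 59.7 CPM (-1.05, adjusted p = 0.0173), and Lyn, the Src kinase upstream of it, was at 232 and 187 CPM against 94.4 and 63.8 CPM (-1.41). The genotypes did not overlap in any of these kinases, nor in 55.1% of all genes tested. Prkcb, the protein kinase C that connects the receptor to NF-kB, was at 580 and 497 CPM against 196 and 208 CPM (-1.41). Malt1, a protease of the same route to NF-kB, fell by 1.40 on the log2 scale. Pik3ap1, an adaptor that recruits PI3K, was at 174 and 141 CPM against 60.0 and 49.6 CPM (-1.52). Rasgrp1 and Rasgrp3, which activate Ras, were at 122 and 55.2 CPM against 31.3 and 29.7 CPM and at 191 and 186 CPM against 69.5 and 90.5 CPM. Blnk, the adaptor that joins Btk to phospholipase C, fell less (335 and 299 CPM against 202 and 203 CPM, log2 fold change -0.65). Plcg2, phospholipase C gamma 2 itself, was at 489 and 414 CPM against 370 and 349 CPM, a log2 fold change of -0.33 that did not pass (adjusted p = 0.242). Leaving out each library in turn gave 17 to 28 genes lower and 0 higher.

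Cd40, the receptor stimulated in this culture, was at 107 and 103 CPM in SpiB KO and at 31.5 and 39.0 CPM in PU.1 SpiB DKO (log2 fold change -1.57 ± 0.20, adjusted p = 0.000753). Tnfrsf13c, the receptor for the survival factor BAFF, was at 356 and 279 CPM against 158 and 118 CPM (-1.20, adjusted p = 0.0034). These were the 2 genes lower among 15 TNF receptors tested, and 4 were higher, of which Tnfrsf8 (CD30, an activation receptor) rose most, from 4.49 and 9.86 CPM to 59.8 and 72.1 CPM (3.19). Of 22 CD40 adaptors and NF-kB genes 2 were lower and 0 higher, a share below that of all genes tested. These were Rel (65.2 and 62.2 CPM against 27.9 and 24.8 CPM, log2 fold change -1.28), an NF-kB subunit, and Ikbkb (-0.60), a kinase that frees NF-kB and that was not called without SpiB KO replicate 1 (-0.40) or without either PU.1 SpiB DKO library (-0.61 and -0.62). The list held 6 genes lower and 1 higher without SpiB KO replicate 2.

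Toll-like receptors and their partners had 7 genes lower and 2 higher of 19 tested. Tlr9, the receptor for unmethylated CpG DNA, was at 139 and 98.6 CPM in SpiB KO and at 24.8 and 21.6 CPM in PU.1 SpiB DKO (log2 fold change -2.35 ± 0.20, adjusted p = 6.46e-05). Unc93b1, which carries Tlr9 to the endosome, was at 631 and 480 CPM against 243 and 206 CPM (-1.31), and Ly86 (MD-1, a partner of RP105) was at 247 and 201 CPM against 71.5 and 69.4 CPM (-1.67). Tlr4, the receptor for LPS, fell by 0.83 from 17.9 and 15.6 CPM to 10.8 and 8.0 CPM. Tlr7, the receptor for single-stranded RNA, had a log2 fold change of -0.06 and was not called, and Myd88, the shared adaptor, rose from 100 and 125 CPM to 169 and 202 CPM (0.72). Without SpiB KO replicate 1 or without PU.1 SpiB DKO replicate 2 the genes called lower numbered 3, and Tlr4 (-0.73 and -0.64) and Myd88 (0.57 and 0.56) were not called.

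Cytokine receptors split into 5 higher and 5 lower of 29 tested, a share of 34.5% beside 15.9% of all genes. The rises held Il2ra (18.4 and 14.1 CPM against 41.5 and 42.9 CPM, log2 fold change 1.38) and Il2rb (12.6 and 5.71 CPM against 44.9 and 42.4 CPM, 2.26), chains of the IL-2 receptor, and Il1r2, the decoy receptor for IL-1 (4.01 and 8.83 CPM against 36.7 and 36.0 CPM, 2.49). Il4ra, the receptor chain for the IL-4 in the culture, was at 2011 and 1799 CPM against 3106 and 2620 CPM (0.59, adjusted p = 0.0498), just over the fold threshold, and fell short of that fold in 7 alternatives (log2 fold change 0.42 to 0.58) and without PU.1 SpiB DKO replicate 1 (0.45) or SpiB KO replicate 2 (0.49). The falls held Il6ra, the receptor for IL-6, at 7.72 and 3.98 CPM against 2.06 and 0.190 CPM (-2.42), and Il10ra, the receptor for IL-10 (-1.35). On a list of genes that respond to IL-4 and STAT6, 7 of 17 were higher and 3 lower. The receptors lower numbered 1 without SpiB KO replicate 1 and 1 without PU.1 SpiB DKO replicate 2, and in both cases Il6ra (-1.87 and -1.52) and Il10ra (-0.97 and -0.92) were not called. On the IL-4 list 3 genes were higher without either of these libraries and 4 without PU.1 SpiB DKO replicate 1.

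Most genes of MHC class II presentation fell, with 14 of 22 lower, 0 higher and a median log2 fold change of -0.85. Ciita, the coactivator that class II genes require, was at 603 and 398 CPM in SpiB KO and at 205 and 196 CPM in PU.1 SpiB DKO (log2 fold change -1.32, adjusted p = 0.0068). Cd74, the invariant chain and among the most abundant messages of these cells, was at 18216 and 14538 CPM against 9095 and 8290 CPM (-0.91, adjusted p = 0.0147). The class II chains H2-Aa (5821 and 4470 CPM against 3544 and 2986 CPM, -0.66) and H2-Eb1 (4874 and 3605 CPM against 2966 and 2480 CPM, -0.64) were called at adjusted p = 0.0679 and 0.0889. H2-Ab1 stayed under the fold threshold, at 4538 and 3780 CPM against 3151 and 2790 CPM (-0.49, adjusted p = 0.129). The proteases that cut antigen and invariant chain fell, with Lgmn (legumain) at 217 and 153 CPM against 35.4 and 32.4 CPM (-2.45) and Ctss (cathepsin S) at 451 and 369 CPM against 230 and 229 CPM (-0.84, adjusted p = 0.0152). Cd86, the costimulatory ligand, was at 64.8 and 39.3 CPM against 16.7 and 14.1 CPM (-1.76), and Cd83, which stabilizes class II at the surface, was at 1421 and 1104 CPM against 606 and 536 CPM (-1.15). The MHC genes have close paralogs, so reads could be split between them in counting. Leaving out each library gave 9 to 17 genes lower, the fewest without SpiB KO replicate 1. Without that library or PU.1 SpiB DKO replicate 2, H2-Aa (-0.45 and -0.56) and H2-Eb1 (-0.40 and -0.54) were not called.

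**Figure D2:**
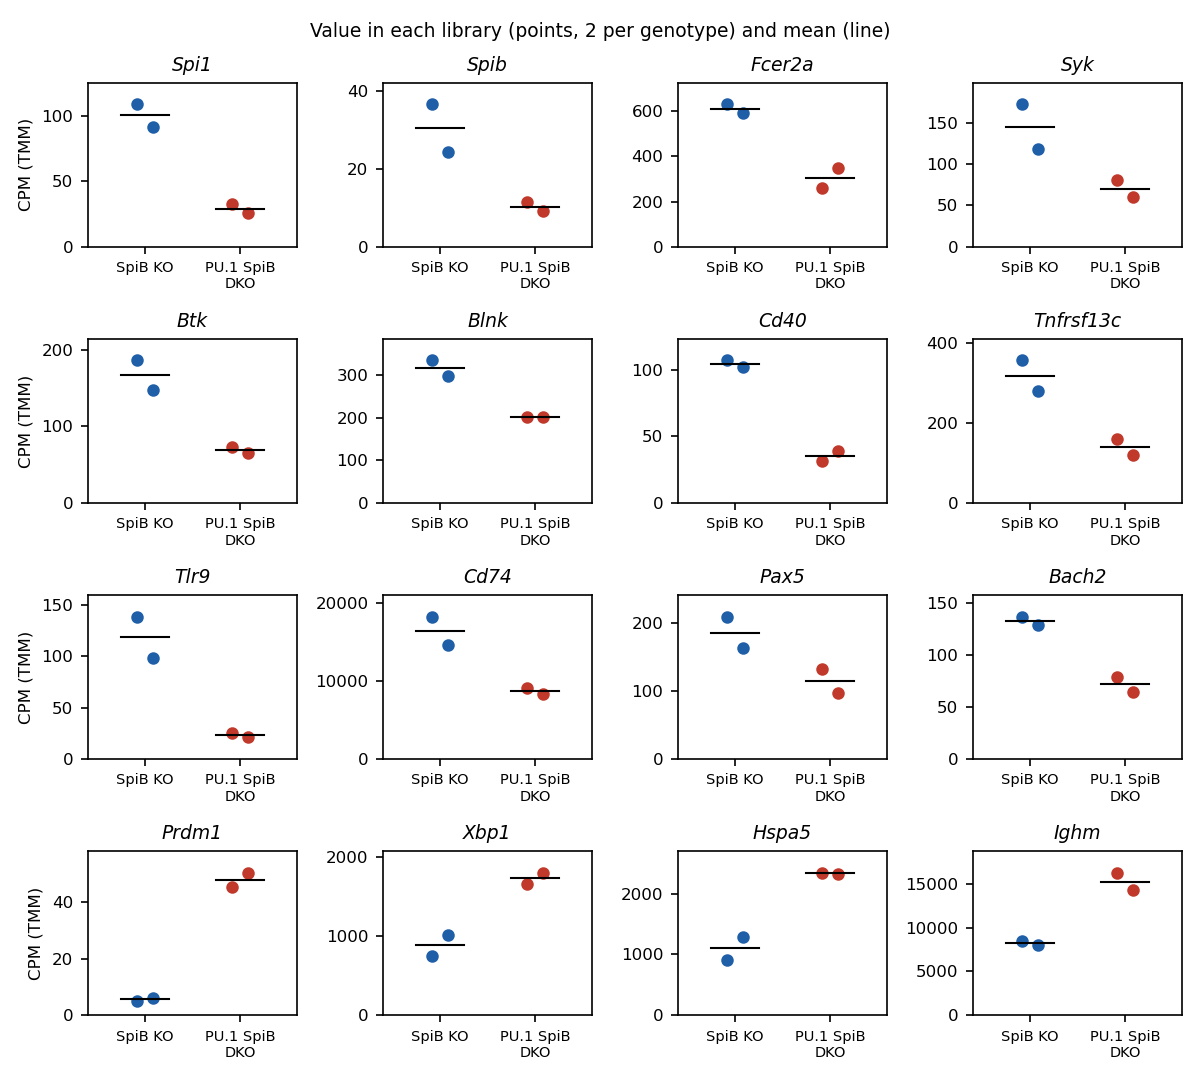
Level (TMM-normalized CPM, linear axes from 0) of 16 genes in each of the 4 libraries, with 1 point per library and a line at the mean of each genotype. The genotypes do not overlap in any panel, nor in 55.1% of all genes tested. Cd40 is at 107 and 103 CPM in SpiB KO and 31.5 and 39.0 CPM in PU.1 SpiB DKO. Prdm1 is at 4.98 and 6.06 CPM and 45.6 and 50.6 CPM.

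Promoters of 5 genes that fell are printed because each holds the sequence GAGGAAGT, a form of the site that PU.1 and SpiB are known to bind, on one strand or the other. They are RefSeq promoter windows of 300 bases in GRCm38.p6, 250 before the transcription start and 50 from it, on the strand of the gene, with the match in capitals. Where the capitals read ACTTCCTC the match is on the opposite strand. Pld4 lies at chr12:112760405-112760704 (+), Fgd2 at chr17:29360664-29360963 (+), Tlr9 at chr9:106222348-106222647 (+), Rasgrp3 at chr17:75435655-75435954 (+) and Ctss at chr3:95526536-95526835 (+).
Pld4: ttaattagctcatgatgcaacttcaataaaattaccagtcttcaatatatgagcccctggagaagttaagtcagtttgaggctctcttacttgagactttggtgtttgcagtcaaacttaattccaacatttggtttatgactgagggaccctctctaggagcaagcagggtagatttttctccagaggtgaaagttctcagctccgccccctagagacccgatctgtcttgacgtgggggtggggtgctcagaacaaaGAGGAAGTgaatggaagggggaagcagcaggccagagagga
Fgd2: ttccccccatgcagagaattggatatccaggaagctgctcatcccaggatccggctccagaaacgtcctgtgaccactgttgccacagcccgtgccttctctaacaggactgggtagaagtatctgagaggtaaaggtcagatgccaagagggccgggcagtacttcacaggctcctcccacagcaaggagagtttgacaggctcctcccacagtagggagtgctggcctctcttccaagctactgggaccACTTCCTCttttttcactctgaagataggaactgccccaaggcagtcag
Tlr9: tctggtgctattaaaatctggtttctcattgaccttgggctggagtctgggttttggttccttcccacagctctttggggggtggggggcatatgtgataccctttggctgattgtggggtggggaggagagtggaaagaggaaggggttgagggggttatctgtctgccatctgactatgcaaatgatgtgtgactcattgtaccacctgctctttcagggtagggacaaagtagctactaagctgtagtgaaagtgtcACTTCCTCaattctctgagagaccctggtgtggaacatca
Rasgrp3: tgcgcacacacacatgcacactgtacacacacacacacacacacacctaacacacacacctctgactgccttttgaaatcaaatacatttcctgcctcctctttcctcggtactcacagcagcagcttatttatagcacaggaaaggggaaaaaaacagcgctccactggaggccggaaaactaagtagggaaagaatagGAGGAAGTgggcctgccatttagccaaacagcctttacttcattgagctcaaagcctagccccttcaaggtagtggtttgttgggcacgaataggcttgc
Ctss: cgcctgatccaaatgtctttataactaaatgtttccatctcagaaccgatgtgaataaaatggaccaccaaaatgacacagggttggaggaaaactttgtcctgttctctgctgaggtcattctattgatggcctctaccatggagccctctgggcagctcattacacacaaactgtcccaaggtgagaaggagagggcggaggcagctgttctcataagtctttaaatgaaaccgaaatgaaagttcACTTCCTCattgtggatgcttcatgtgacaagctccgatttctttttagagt
Counted from the start site, the match began at base 10 in Pld4, 2 in Fgd2 and 11 in Tlr9, and at -50 in Rasgrp3 and -2 in Ctss.

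A match with these letters is a description of the sequence and not a bound site. The windows of 9318 of the 12298 genes tested could be matched, 707 of the 1068 genes called higher and 696 of the 884 called lower. GAGGAAGT was found on either strand in 3.20% of all 32851 windows, in 5.99% of the windows of genes called lower, in 1.98% of those of genes called higher and in 3.08% of those of genes not called. The shorter AGGAAGT, which each GAGGAAGT also holds, was found in 9.35% of all windows and in 15.5%, 6.60% and 8.74% of the same 3 classes. The core GGAA, which both longer motifs hold, was found in 96.0% of all windows. The 12 largest falls had 18 windows, and AGGAAGT was in 4 of them, those of Ccr6, Fgd2, March1 and Pld4. Of the 12 largest rises 7 had a window, and 1 of their 8 windows held it, in Ccr4.

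Of 31 regulators of the B cell programme tested, 14 were lower and 2 higher (median log2 fold change -0.57). Mef2b, a germinal center factor, was at 34.8 and 26.9 CPM in SpiB KO and at 5.53 and 4.38 CPM in PU.1 SpiB DKO (log2 fold change -2.64). Bcl11a, a zinc finger repressor of early and mature B cells, was at 362 and 343 CPM against 141 and 142 CPM (-1.31, adjusted p = 0.000265), and Pou2f2 (OCT2, an octamer factor of mature B cells) was at 79.5 and 38.7 CPM against 26.3 and 13.9 CPM (-1.56). Factors that hold the B cell state had smaller fold changes. Bach2, which represses plasma cell differentiation, was at 137 and 128 CPM against 78.8 and 64.6 CPM (-0.89, adjusted p = 0.0154). Pax5, the factor that commits cells to the B lineage, was at 210 and 163 CPM against 132 and 97.6 CPM (-0.70, adjusted p = 0.0379). Irf8, a partner of PU.1 on composite sites, was at 774 and 669 CPM against 715 and 725 CPM (adjusted p = 0.992), and Bcl6, the germinal center repressor, at 23.6 and 10.6 CPM against 12.2 and 7.81 CPM (-0.77, adjusted p = 0.286). Neither was called, and the Bcl6 libraries overlapped. Notch2, the receptor required for marginal zone B cells, fell from 214 and 138 CPM to 82.6 and 67.8 CPM (-1.23). Without SpiB KO replicate 1, and likewise without PU.1 SpiB DKO replicate 2, 5 regulators were called lower, and Pou2f2 (-0.95 and -1.19) and Pax5 (-0.50 and -0.51) were not.

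Genes of the plasma cell programme moved the other way, with 18 of 26 higher, 0 lower and a median log2 fold change of 0.99. Prdm1, which encodes BLIMP1, the repressor that fixes plasma cell fate, was at 4.98 and 6.06 CPM in SpiB KO and at 45.6 and 50.6 CPM in PU.1 SpiB DKO (log2 fold change 3.12 ± 0.19, adjusted p = 6.97e-06). Xbp1, the driver of the secretory programme, was at 748 and 1013 CPM against 1650 and 1796 CPM (0.97, adjusted p = 0.00853), and Bhlha15 (MIST1, a secretory cell factor) was at 3.13 and 9.43 CPM against 48.3 and 49.9 CPM (2.95). In each of them both PU.1 SpiB DKO libraries were above both SpiB KO libraries. The genotypes did not overlap in 55.1% of all genes tested. Sdc1, which encodes CD138, the antigen by which plasma cells had been gated out, was at 2.54 and 3.46 CPM against 19.6 and 17.4 CPM (2.62). Ell2, an elongation factor for secreted immunoglobulin, was at 119 and 141 CPM against 482 and 385 CPM (1.73), and Mzb1, an endoplasmic reticulum chaperone of antibody secretion, was at 485 and 548 CPM against 1432 and 1419 CPM (1.46, adjusted p = 0.000767). Igkc, the kappa light chain, was at 1886 and 2061 CPM against 3393 and 3607 CPM (0.83). Irf4, which plasma cells also require, was at 393 and 691 CPM against 621 and 700 CPM (0.28, adjusted p = 0.468) and was not called. Leaving out each library in turn gave 17 to 20 genes higher and at most 1 lower.

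Of 56 genes for protein processing in the endoplasmic reticulum, 29 were higher and 0 lower, and 55 had a positive log2 fold change (median 0.59). Hspa5 (BiP), the main chaperone of the compartment, was at 911 and 1281 CPM in SpiB KO and at 2344 and 2325 CPM in PU.1 SpiB DKO (log2 fold change 1.09, adjusted p = 0.00756). Hyou1, a further chaperone, was at 236 and 317 CPM against 655 and 624 CPM (1.21), and Derl3, which exports misfolded proteins, was at 5.96 and 9.0 CPM against 47.4 and 32.9 CPM (2.41). Sec24d, a coat protein of transport vesicles, rose from 7.52 and 17.8 CPM to 66.1 and 58.7 CPM (2.29). The sensor Ern1 (IRE1), which splices Xbp1, rose from 4.79 and 5.54 CPM to 13.4 and 13.0 CPM (1.35). Ddit3 (CHOP, a death gene of the stress response) had the lowest value on the list, -0.13, and was not called. Without SpiB KO replicate 1 the genes called higher numbered 16, and without the other libraries in turn 26 to 35.

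Of 27 genes of class switching 4 were higher and 0 lower, a share of 14.8% beside 15.9% of all genes. Ighg1, the IgG1 heavy chain, was at 226 and 324 CPM in SpiB KO and at 706 and 650 CPM in PU.1 SpiB DKO (log2 fold change 1.30, adjusted p = 0.00623). RNA counts on a heavy chain gene do not give the number of switched cells. By flow cytometry at a later time of this culture, the study reports fewer IgG1+ B cells in PU.1 SpiB DKO than in SpiB KO. Ighe was at 10.1 and 28.5 CPM against 33.7 and 96.4 CPM (1.75, adjusted p = 0.0519), with wide gaps between replicates. The genes higher numbered 2 without SpiB KO replicate 1, and Ighe was then not called (1.20), as it was not without PU.1 SpiB DKO replicate 2 (0.78). Igha was counted in 2 and 3 reads against 15 and 17.

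**Figure D3:**
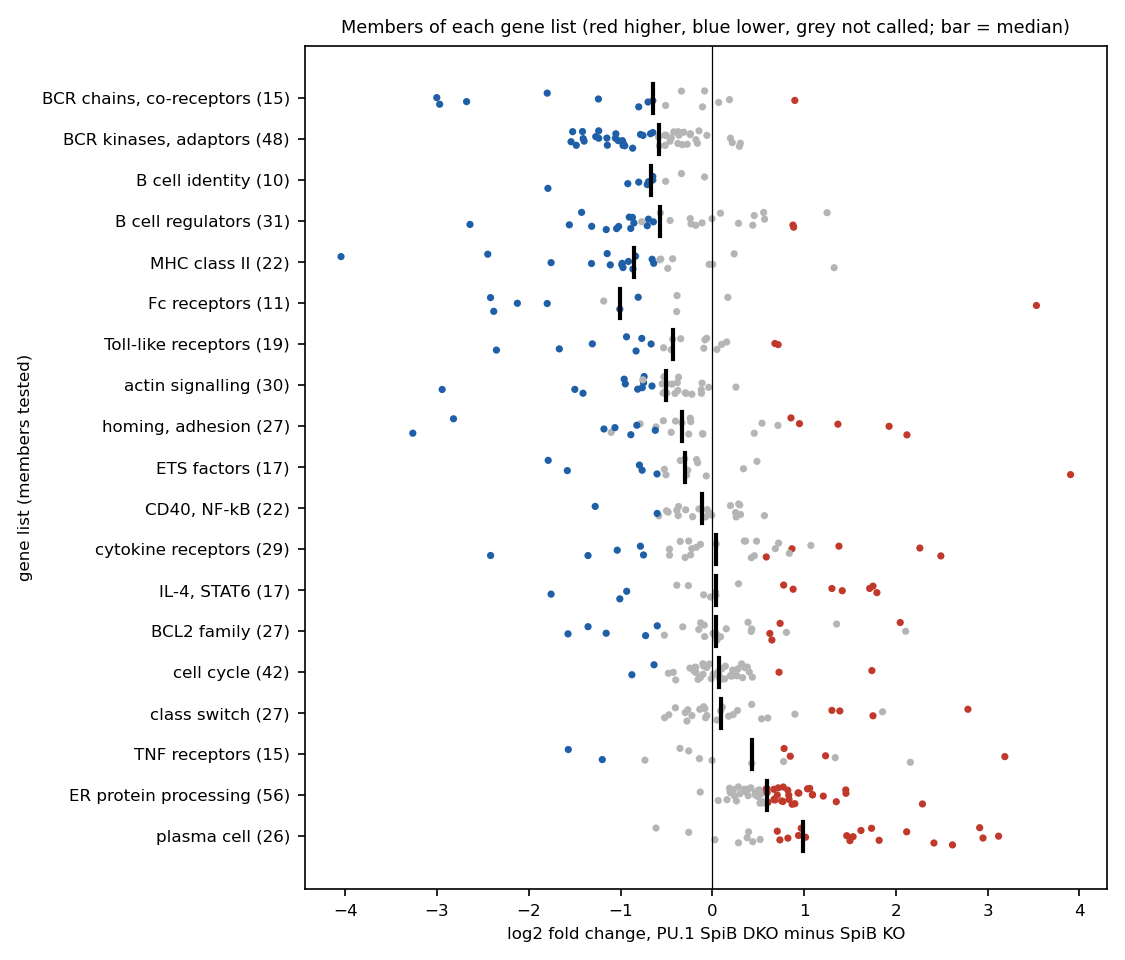
Log2 fold change of PU.1 SpiB DKO over SpiB KO for every tested member of 19 gene lists, 1 point per gene (red called higher, blue called lower, grey not called), with a bar at each list's median. Plasma cell (median 0.99) and endoplasmic reticulum genes (0.59) lie mostly above 0, and MHC class II (-0.85), BCR chain (-0.65) and BCR kinase genes (-0.58) mostly below it.

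Several further groups held genes that fell. Of 27 homing and adhesion genes tested 7 were lower and 5 higher, with Ccr6 among those that fell. Of 30 regulators of RAC and actin 10 were lower and 0 higher, among them Swap70, which remodels actin in activated B cells (628 and 609 CPM in SpiB KO against 305 and 336 CPM in PU.1 SpiB DKO, log2 fold change -0.95), and Lsp1, an F-actin binding protein (489 and 319 CPM against 169 and 118 CPM, -1.50). Of 11 Fc receptor genes 6 were lower and 1 higher. Fcer1g, the common Fc receptor gamma chain, was the one that rose, from 1.95 and 0.865 CPM to 21.1 and 11.2 CPM (3.53), while Faim3, the IgM receptor, was at 355 and 227 CPM against 59.7 and 49.3 CPM (-2.42). In the ETS family itself 5 of 17 genes were lower, Spi1 and Spib among them, and Erg rose from 2 and 3 reads to 29 and 41. The ETS genes lower numbered 3 without SpiB KO replicate 1 and 3 without PU.1 SpiB DKO replicate 2. Without SpiB KO replicate 2 the actin list held 16 genes lower, and without each of the 4 libraries in turn the homing genes higher numbered 2 to 4.

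The BCL2 family and death genes split into 4 higher and 5 lower of 27, a share of 33.3% beside 15.9% of all genes. Bcl2, which protects naive lymphocytes, was at 68.4 and 59.8 CPM in SpiB KO and at 31.4 and 26.1 CPM in PU.1 SpiB DKO (log2 fold change -1.16), and Bcl2l1 (BCL-XL, a survival protein of activated cells) rose by 0.74. The family held 1 gene higher without SpiB KO replicate 1, and without PU.1 SpiB DKO replicate 2 it held 0, and Bcl2l1 was not called (0.66 and 0.47). Of 42 cell cycle genes 2 were higher and 2 lower, a share of 9.52% beside 15.9% of all genes. They numbered 1 and 1 without SpiB KO replicate 1 or PU.1 SpiB DKO replicate 2, 3 and 3 without PU.1 SpiB DKO replicate 1, and 4 and 1 without SpiB KO replicate 2. Cdkn1a (p21, a brake on cyclin-dependent kinases) rose from 15.5 and 12.7 CPM to 46.0 and 48.2 CPM (1.74), and Ccnd2, the D-type cyclin of activated B cells, fell from 208 and 325 CPM to 138 and 152 CPM (-0.88), but by under the fold threshold without SpiB KO replicate 2 (-0.54).

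B cell markers were lower in 7 of 10 genes (0 higher, median -0.67), a count that was 2 without SpiB KO replicate 1 and 3 without PU.1 SpiB DKO replicate 2. Beside these and the marker lists that follow, 8.68% of all genes tested were higher and 7.19% lower. Ms4a1 (CD20) was at 2305 and 1795 CPM in SpiB KO and at 706 and 478 CPM in PU.1 SpiB DKO (log2 fold change -1.79 ± 0.24, adjusted p = 0.00126). Of 16 T cell markers 8 were tested and 3 were higher and 1 lower, with a summed level of 259 and 197 CPM in SpiB KO and of 387 and 363 CPM in PU.1 SpiB DKO. Among them Cd3d, Cd3e, Cd3g, Cd4 and Cd8b1, which define T cells, were under the filter, while Thy1 (57.5 and 67.0 CPM against 170 and 190 CPM, 1.53) made up part of the sum. Of 9 NK cell markers 4 were tested and 2 higher, led by Eomes at 0.391 and 0.173 CPM against 6.29 and 4.67 CPM. Macrophage and myeloid markers summed to 58.7 and 40.6 CPM in SpiB KO and to 11.5 and 8.57 CPM in PU.1 SpiB DKO, with 10 of 20 at 0 in all 4 libraries and 3 tested. Most of the sum in SpiB KO was Emr1 (F4/80), at 42.0 and 27.4 CPM against 4.88 and 4.19 CPM, while Csf1r and Lyz2 were under the filter. Plasmacytoid dendritic cell markers summed to 523 and 397 CPM against 220 and 211 CPM, with 2 of 7 tested higher and 3 lower, Pld4 among the latter, and the 2 higher became 0 without SpiB KO replicate 1 or PU.1 SpiB DKO replicate 2 and 1 without either other library. Conventional dendritic cell markers summed to 28.4 and 12.6 CPM against 23.6 and 20.1 CPM (2 of 5 tested higher, 1 without SpiB KO replicate 1 and 0 without any other library), and no erythroid or platelet marker passed the filter. The part of such cells in the differences above was not tested.

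With SpiB present, PU.1 cKO differed from control in the same culture in 1661 genes (13.5% of the 12298), 771 higher (6.27%) and 890 lower (7.24%). PU.1 cKO replicate 2 held 61640683 counts, against at most 11434235 in any other library of the culture. The genes called in both contrasts numbered 930, which is 47.6% of the 1952 called without SpiB and 56.0% of the 1661 called with it, and 903 of them had the same direction. The contrasts share no library, and Cre differs between the genotypes only in the contrast without SpiB. The floxed Spi1 alleles differ between the genotypes only in the contrast with SpiB. The groups of genes lay close together in some cases. MHC class II had a median log2 fold change of -0.85 in each contrast, with 14 genes lower without SpiB and 16 lower with it, and the plasma cell list had medians of 0.99 and 0.93. B cell regulators had a median of -0.57 without SpiB and of -0.11 with it, where 4 were higher and 8 lower, and endoplasmic reticulum genes had medians of 0.59 and 0.39. Whether these list medians differ was not tested. Prdm1 rose by 2.55 and Cd40 fell by 2.17 on the log2 scale with SpiB present.

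The difference between the contrasts passed the test in 136 genes (edgeR interaction term, adjusted p under 0.15, 1.11% of those tested), 69 with a positive and 67 with a negative difference. Of these, 94 were also called in the comparison without SpiB, and in 81 of the 94 the difference had the direction of the change without SpiB. Fgd2 fell by 3.71 without SpiB, whereas with SpiB it was at 102 and 112 CPM in control and at 87.9 and 83.9 CPM in PU.1 cKO (log2 difference of the contrasts -3.39 ± 0.26, adjusted p = 0.000784). Siglecg was at 129 and 155 CPM in control and at 98.9 and 90.8 CPM in PU.1 cKO (difference -2.42, adjusted p = 0.00577). In both genes the PU.1 SpiB DKO libraries were below all other libraries of the culture. Ms4a1 was at 1519 and 2186 CPM in control and at 1628 and 1423 CPM in PU.1 cKO (difference -1.51, adjusted p = 0.134). March1, Pld4, Ccr6, Tlr9 and Lgmn had log2 fold changes of -1.39, -1.68, -1.81, -0.89 and -1.23 with SpiB present, and their differences of -2.66, -2.13, -1.45, -1.46 and -1.21 passed at adjusted p of 0.00248, 0.0286, 0.0905, 0.0635 and 0.126.

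Some genes differed in the opposite sense. Nfam1 fell from 27.5 and 35.4 CPM in control to 0.502 and 0.296 CPM in PU.1 cKO, a larger fall than the -3.35 without SpiB (difference 3.17, adjusted p = 0.0301). Ighe was at 59.6 and 47.0 CPM in control and at 8.94 and 15.7 CPM in PU.1 cKO, against a log2 fold change of 1.75 without SpiB (difference 3.81, adjusted p = 0.0709). The chemokines Ccl17 and Ccl22 were at 5.08 and 1.56 CPM and at 93.9 and 28.0 CPM in SpiB KO, and at 14.7 and 8.10 CPM and at 194 and 131 CPM in PU.1 SpiB DKO. In PU.1 cKO they were at 1.61 and 0.790 CPM and at 47.2 and 25.5 CPM, against 2.71 and 7.69 CPM and 73.1 and 183 CPM in control. The control libraries were far apart in both chemokines, as were those of SpiB KO. The largest negative differences belonged to H2-Q10, H2-Q2, H2-Q1, H2-K2, Gm8909 and Gm20568, which all rose in PU.1 cKO, as H2-Q2 did from 0.612 and 1.16 CPM to 73.0 and 114 CPM. Without SpiB 5 of these 6 were not called, and Gm8909 was at 1.86 and 1.38 CPM against 3.36 and 3.05 CPM (0.99, adjusted p = 0.135), a call lost under voom and without any 1 of the 4 libraries (0.76 to 1.20). H2 genes of class I are near-identical copies, and their counts are uncertain. The interaction count was 60 and 44 without control replicate 1 and 2, 66 and 87 without PU.1 cKO replicate 1 and 2, 90 without SpiB KO replicate 1, and 206 and 57 without PU.1 SpiB DKO replicate 1 and 2.

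The same genotypes were compared as naive cells and after LPS + IL-4 in a fit of all 24 libraries and 13684 genes. In that fit the contrast of PU.1 SpiB DKO with SpiB KO changed 2334 genes after CD40L + IL-4 (17.1%), 483 in naive cells (3.53%) and 1427 after LPS + IL-4 (10.4%). Of the 483 naive genes 230 were also called after CD40L + IL-4, 167 of them in the same direction, and of the 1427 genes after LPS + IL-4 764 were, 739 in the same direction. At all 3 stages 61 genes were higher and 47 lower. The contrast for Spi1 differed between stages (log2 difference -1.18 against naive and -1.39 against LPS + IL-4, adjusted p = 0.00221 and 0.00207), with the lowest value after CD40L + IL-4. The study reports marked retention of the floxed Spi1 exon in naive PU.1 SpiB DKO cells. It reports complete deletion after CD40L + IL-4 and a similar degree after LPS + IL-4. The part of incomplete deletion in the naive values and the stage differences was not tested. The contrast itself differed from that in naive cells in 1389 genes (10.2%) and from that after LPS + IL-4 in 1942 (14.2%), at an adjusted p under 0.15. These counts were 752 and 479 without SpiB KO replicate 1 of the CD40L + IL-4 culture.

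Medians of 3 of the gene groups are given side by side for the stages. BCR kinases and adaptors had a median of -0.12 in naive cells and of -0.17 after LPS + IL-4, beside -0.58 in the 8-library fit of CD40L + IL-4. MHC class II had -0.39 and -0.50, with 9 genes lower after LPS + IL-4, and the plasma cell list had 0.07 and 0.82, with 16 of its genes higher after LPS + IL-4. Xkrx was at 103 and 92.1 CPM in naive SpiB KO cells and at 61.3 and 52.9 CPM in naive PU.1 SpiB DKO cells, and its contrast differed from that in culture (log2 difference -5.18, adjusted p = 8.29e-08). Lifr was at 26.5 and 26.3 CPM against 32.9 and 31.1 CPM in naive cells (difference -5.04, adjusted p = 7.02e-05). Hid1 was at 8.5 and 7.30 CPM against 11.4 and 9.95 CPM as naive cells, beside its rise in culture. The 3 stages were sequenced to different depths, and only the genotype contrast within a stage was compared.

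**Figure D4:**
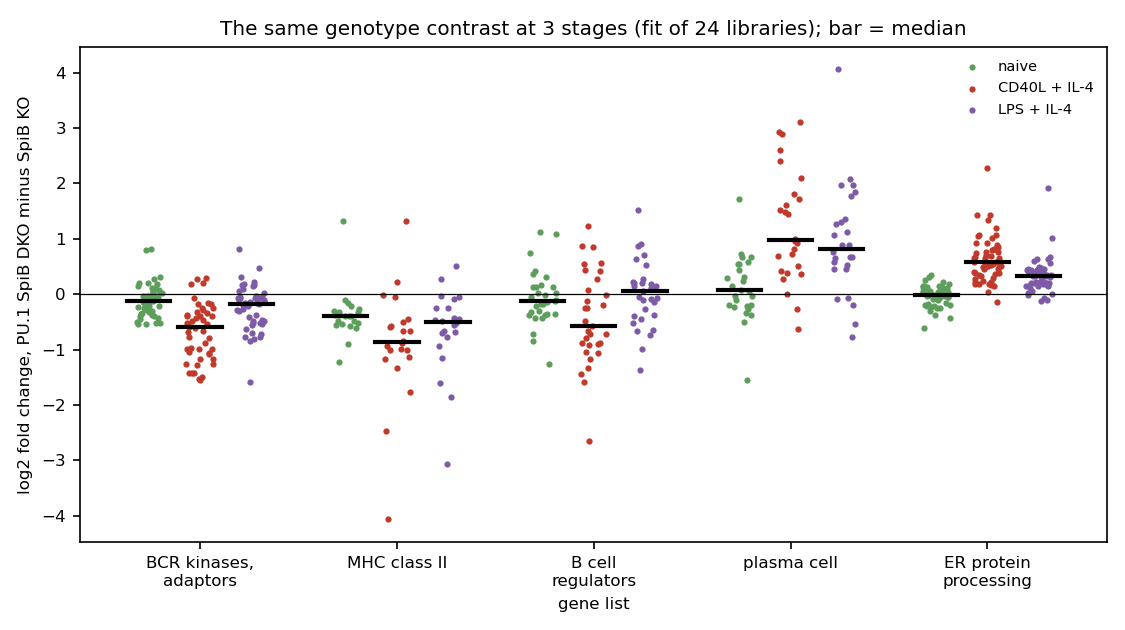
Log2 fold change of PU.1 SpiB DKO over SpiB KO from the fit of all 24 libraries for members of 5 gene lists in naive cells (green), after CD40L + IL-4 (red) and after LPS + IL-4 (purple), 1 point per gene and a bar at each median. The medians in naive cells lie closer to 0 than those after CD40L + IL-4 in all 5 lists, as for MHC class II at -0.39 in naive cells. The study reports that naive PU.1 SpiB DKO cells partly retained the floxed Spi1 exon.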

How the data were processed

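Reads had been aligned by the authors to GRCm38 (mm10) with Subread, and featureCounts had assigned the unique alignments to RefSeq exons. The deposited counts are raw whole numbers for 27179 genes in 24 libraries. The 517 entries that lack a symbol hold 0.162% of all counts and were kept in library sizes and tests. The authors also deposited log2 RPKM values, which served only as 1 alternative threshold. Whether counting used strand is not given in the sources used here.

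The 8 libraries of the CD40L + IL-4 culture were fitted together with edgeR 4.0.16 in R 4.3.3 (TMM normalization, quasi-likelihood test), on genes that reached 0.5 CPM in 2 or more of the 4 libraries compared. A gene was called at a Benjamini-Hochberg adjusted p under 0.15 and a fold change over 1.5, as in the study's methods. Standard errors were derived from each log2 fold change and the square root of its F statistic. Stages were compared in 1 fit of all 24 libraries. No set test was run, and lists are described by counts and medians. DESeq2 1.42.0 and limma 3.58.1 (voom) served as alternatives, with the RLE size factors, the filters, the samples in the fit and each library left out in turn. Counts on gene lists without each library were added after seeing the data.

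The contrast, gene lists and naming rule were chosen with earlier results of these data known. The rule named Spi1, Spib, Fcer2a, genes the study names, the 12 largest rises and falls and the 8 largest by difference in CPM among genes called without overlap and at 10 CPM or more, up to 5 called members of each list in each direction, and the 6 largest interaction and stage differences in each direction. Genes near Spi1, Spib and Fcer2a, and the list members Blnk, Ctss, Ddit3, H2-Ab1, Malt1, Plcg2, Syk and Tlr7, were chosen after their values were seen. On simulated counts at these depths edgeR recovered 67.5% of 200 genes changed by 1 on the log2 scale among 12298, with 41 false calls, and made 2 calls where nothing changed. Intervals cover counting error only. Promoters were RefSeq windows. Some genes are not reported here.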

Additional observations from a re-analysis of the deposited data

Results flagged for a closer look

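The PU.1 contrasts with and without SpiB differed in 136 genes (edgeR interaction term, adjusted p under 0.15). The presence of SpiB cannot be told apart here from Cre, which differs only within the pair without SpiB. Nor can it be told apart from the floxed Spi1 alleles, which differ only within the pair with SpiB. The positive differences, where the value without SpiB was above that with SpiB, were led by Ccl17 (4.08 on the log2 scale), Bcl2a1d (4.00), Ighe (3.81), Ccl22 (3.25), Nfam1 (3.17) and Fscn1 (3.07). Bcl2a1d, a survival gene with close paralogs among which reads may be split, was at 7.03 and 10.6 CPM in SpiB KO and at 3.58 and 2.38 CPM in PU.1 SpiB DKO, against 19.5 and 27.0 CPM in control and 0.602 and 0.445 CPM in PU.1 cKO. Fscn1, an actin bundling protein, was at 70.1 and 29.1 CPM against 161 and 115 CPM without SpiB. The negative differences were led by H2-Q10 (-6.88), H2-Q2 (-6.44), H2-Q1 (-6.17), H2-K2 (-5.04), Gm8909 (-4.75) and Gm20568 (-4.29), of which Gm8909 alone was called in the comparison without SpiB, at adjusted p = 0.135 and not under voom or without any 1 of the 4 libraries.

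The contrast differed from that in naive cells in 1389 genes. The positive differences were led by Itgb5 (6.99), Perp (5.43), Nefh (4.71), Hid1 (4.57), Ccr4 (4.49) and Hspa1b (4.40). The negative ones were led by 1700028I16Rik (-9.65), Gdpd3 (-6.07), Slc1a2 (-5.89), Xkrx (-5.18), Lifr (-5.04) and Ptgs1 (-4.67). After CD40L + IL-4 Hspa1b was at 0.387 and 0.596 CPM in SpiB KO and at 0.316 and 1.49 CPM in PU.1 SpiB DKO. In naive cells it was at 16.6 and 9.13 CPM against 1.88 and 0.450 CPM. Gdpd3 was at 0.0967 and 0.426 CPM against 0 and 0 CPM after CD40L + IL-4. Where 1 genotype held no reads, as for Itgb5 (0 in both SpiB KO libraries) and 1700028I16Rik (0 in both PU.1 SpiB DKO libraries) after CD40L + IL-4, the fitted value depends on the prior count and is no bound.

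The contrast differed from that after LPS + IL-4 in 1942 genes. The positive differences were led by Il10 (9.17), Klra1 (8.38), Itgb5 (7.17), Rn7sk (5.50), Sytl3 (5.06) and Rn18s (4.72). Klra1 was close to absent in both cultures. After CD40L + IL-4 it was at 0 CPM in both SpiB KO libraries and at 0 and 0.467 CPM in PU.1 SpiB DKO. After LPS + IL-4 it was at 0.0476 and 0.259 CPM against 0.0229 and 0 CPM. Il10, the regulatory cytokine, was at 0 in both SpiB KO libraries of the CD40L + IL-4 culture and at 3.47 and 4.11 CPM in PU.1 SpiB DKO, and Rn7sk and Rn18s were high in PU.1 SpiB DKO replicate 1 alone (Rn18s at 5128 CPM against 239 CPM in replicate 2 and 259 and 261 CPM in SpiB KO). The negative differences were led by 1700028I16Rik (-7.28), Gcsam (-5.03), Slc16a3 (-4.90), Slpi (-4.11), Cdh1 (-3.55) and Xkrx (-3.46). Slc16a3 rested on 1 library, with 1.84 and 54.9 CPM in SpiB KO and 2.21 and 1.12 CPM in PU.1 SpiB DKO after CD40L + IL-4. Cdh1 was at 9.96 and 5.19 CPM against 8.74 and 3.17 CPM after CD40L + IL-4. After LPS + IL-4 it was at 0.619 and 0.994 CPM against 7.88 and 5.99 CPM. Slpi, a secreted protease inhibitor, was at 188 and 402 CPM against 428 and 335 CPM after CD40L + IL-4 and at 1.24 and 0.951 CPM against 31.9 and 18.8 CPM after LPS + IL-4. Of the 171 other named genes, 24 differed by the presence of SpiB, 103 from naive cells and 71 from LPS + IL-4, beside 1.11%, 10.2% and 14.2% of all genes tested. These genes were largely chosen for their change in this contrast, so nothing is read from the counts.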

How the results depend on the processing

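The comparison of PU.1 SpiB DKO with SpiB KO gave 1952 calls, and between 1461 and 2279 with RLE size factors, DESeq2, voom, no filter, other filters, other samples in the fit, Rn45s left out, a mean log2 RPKM above 0 or the replicate block. At an adjusted p under 0.05 it gave 1261. Leaving out 1 library gave 1075 to 2498 calls, and the log2 fold change of Spi1 lay between -1.64 and -1.98. The 136 interaction genes were 279 under DESeq2, 74 under voom, 647 with no filter, 503 with all 24 libraries in the fit and 36 at an adjusted p under 0.05, and 44 to 206 when 1 library was left out. The causes were not tested. Replicate numbers were not shown to pair the libraries (correlations of same-numbered deviations from -0.0606 to 0.378). The highest value was that of SpiB KO with PU.1 SpiB DKO, the pair compared here, and the main fit used no pairing. With the replicate block the counts were 2249 and 391, and within stages 2819 genes differed from naive cells and 3875 from LPS + IL-4. The stage difference from naive cells, 1389 genes, was 699 at an adjusted p under 0.05 and 752 to 2074 when 1 library was left out, and that from LPS + IL-4, 1942 genes, was 670 and 474 to 2932. The naive count moved by over 1.5 times without SpiB KO replicate 1 after CD40L + IL-4 (752), naive SpiB KO replicate 1 (858) or naive PU.1 SpiB DKO replicate 2 (924). The LPS + IL-4 count did so without each SpiB KO library after CD40L + IL-4 (479 and 2932), PU.1 SpiB DKO replicate 2 of that culture (474), each SpiB KO library after LPS + IL-4 (1065 and 856) or PU.1 SpiB DKO replicate 1 after LPS + IL-4 (555). The split of calls, 1068 higher and 884 lower, became 989 and 1010 without PU.1 SpiB DKO replicate 1. For 184 named genes, 13 alternatives gave 2391 values, of which 2207 kept their side of the threshold. Of the rest, 178 were no longer called and 6 became called. Among values of genes called in the main fit, 0 changed direction, and the direction of the other named genes is not given. With 2 libraries per genotype of at most 11434235 counts, changes of low genes were the least certain.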

Other observations

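By difference in CPM rather than by fold change, several abundant genes outside the groups above fell. Wdfy4, a BEACH domain protein known from cross-presentation, was at 1290 and 1216 CPM in SpiB KO and at 457 and 459 CPM in PU.1 SpiB DKO (log2 fold change -1.45). Psap, the precursor of lysosomal saposins, was at 1580 and 1246 CPM against 727 and 613 CPM (-1.08), and Ifi30, a lysosomal thiol reductase, was at 1677 and 1267 CPM against 770 and 716 CPM (-0.99). In all 3 both PU.1 SpiB DKO libraries were below both SpiB KO libraries, as the naming rule required. Tmem123, a transmembrane mucin-like protein, was at 3330 and 3483 CPM against 1962 and 1508 CPM (-0.97). Klhdc2, a substrate receptor of a ubiquitin ligase, was higher, at 1053 and 1094 CPM against 2160 and 1847 CPM (0.90).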
